A study of Mus musculus with 12 samples.

Results

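RNA sequencing libraries from CD4+ YFP(FOXP3)- T cells were examined for 7 genes that act as brakes on T cell receptor signaling: the E3 ubiquitin ligase genes *Rnf128*, *Itch*, *Cblb* and *Cbl*, the diacylglycerol kinase genes *Dgka* and *Dgkz*, and *Ndrg1*. The members were chosen by gene name, and all 7 of 7 were found among the 26608 genes counted in each library and passed the filter on low counts that left 16035 genes for testing. The 12 libraries fell into 3 groups of 4, all from mice 14 weeks old. WT mice were Foxp3Cre WT. DKO-moderate and DKO-severe mice carried Foxp3-Cre together with *Tet2* and *Tet3* genes flanked by loxP sites (Tet2/3 fl/fl), and were told apart by the authors by a lower or a higher number of cells in the spleen and lymph nodes. The Foxp3-Cre allele was shared by all 3 groups. This Cre is driven by the *Foxp3* gene but is known to leak at a low level into other cells, so the sorted FOXP3- cells of DKO mice could hold cells deleted for both genes before they lost FOXP3 (ex-Treg cells), conventional T cells deleted by leaky Cre, and undeleted cells. The 2 DKO groups carried the same alleles and were grouped by disease state. The study reports a larger share of females among its DKO-severe than its DKO-moderate mice. Sex was not among the sample labels used here. Spleen and lymph nodes (cervical, inguinal) were pooled before the sort. The labels number 4 samples a group without saying that each came from a separate mouse, so p-values measure the spread between these samples.

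T cell anergy is the state of a T cell that met antigen without costimulation and then responds poorly. When the T cell receptor is engaged, phospholipase C-γ1 makes diacylglycerol, which recruits RasGRP1 and protein kinase C and so drives the Ras and NF-κB arms of the response. Diacylglycerol kinases end this signal by phosphorylating diacylglycerol to phosphatidic acid, and the ligases named above tag receptor components and signaling enzymes with ubiquitin. NFAT working without AP-1, and the EGR2 and EGR3 factors it induces, are known to raise several of these genes in anergic cells.

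The libraries held 29254260 to 42133536 reads on genes. Levels are given as CPM, read counts scaled to a common library size after TMM correction. Differences were tested by quasi-likelihood F tests in edgeR from a single fit, and an adjusted p (Benjamini-Hochberg, whole gene table) under 0.05 counted as past the threshold. *Tet2* was counted at 43.3 to 62.2 CPM in WT and 56.7 to 65.8 CPM in DKO-severe libraries (log2 fold change 0.22, adjusted p = 0.234), and *Tet3* at 167 to 210 against 87.8 to 102 CPM (−1.03, adjusted p = 0.000859). These counts cover the whole gene and do not separate the deleted exons, so they check the deletion only in part. Summed CPM of 7 CD4 T cell genes ran from 4053 to 4662 in WT libraries, from 4680 to 4885 in DKO-moderate and from 3752 to 4205 in DKO-severe. Summed CPM of 7 naive T cell genes was 4399 to 5101, 2463 to 3925 and 1655 to 2230, and that of 7 activation genes was 393 to 604, 1084 to 1722 and 1795 to 2920. In DKO-severe against WT, where 52.6% of all tested genes passed, 6 activation genes rose and *Cd69* fell (log2 fold change −0.74). Of the naive genes 6 fell and 0 rose. Of the CD4 T cell genes *Cd3e* rose and *Cd5*, *Cd2* and *Lck* fell. The sum of 8 neutrophil genes was at most 1.61 in WT and 8.42 in DKO-moderate libraries, and was 2199, 814, 23.6 and 9.77 in DKO-severe libraries 1 to 4, all 8 genes passing the test in DKO-severe against WT. Of 6 B cell genes 0 passed, with sums of 6.81, 9.90, 197 and 15.1 CPM in WT libraries 1 to 4. Their sums were 33.8 to 357 CPM in DKO-severe libraries, above every WT library except library 3. Of 5 plasma cell genes 2 rose in DKO-severe, with sums of 36.7, 44.7, 145 and 57.2 CPM in WT libraries 1 to 4, 104 to 206 CPM in DKO-moderate and 337 to 516 CPM in DKO-severe. Of 5 monocyte and macrophage genes 1 rose, with sums of 4.34, 9.94, 167 and 8.75 CPM in WT libraries 1 to 4. These sums were 10.4 to 42.1 CPM in DKO-moderate and 55.9 to 343 CPM in DKO-severe. In DKO-moderate library 4, genes with at least 8 kb of exon lay 0.74 log2 units below genes with under 2 kb, each relative to its WT mean, while in the other 11 libraries this difference was between −0.22 and 0.06. In bulk RNA, fewer cells of a type and less RNA per cell cannot be told apart.

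*Rnf128* rose by more than 10-fold in both DKO groups, *Dgka* fell in steps from WT to DKO-moderate to DKO-severe, and *Itch* fell in DKO-severe. In DKO-severe against WT, 3 of the 7 genes passed the test, 1 higher and 2 lower, where 52.6% of all tested genes passed (26.6% higher and 25.9% lower). In DKO-moderate against WT, 2 of 7 passed, 1 higher and 1 lower, where 17.1% of all tested genes passed (12.3% higher and 4.74% lower). In DKO-severe against DKO-moderate, only *Dgka* passed, as a lower gene, where 20.1% of all tested genes passed (9.41% higher and 10.7% lower). The median log2 fold change of the 7 genes was −0.12, −0.27 and −0.19 in these comparisons, and that of all tested genes was −0.01, 0.00 and −0.03. Both comparisons against WT share the same 4 WT libraries.

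**Figure D1:**
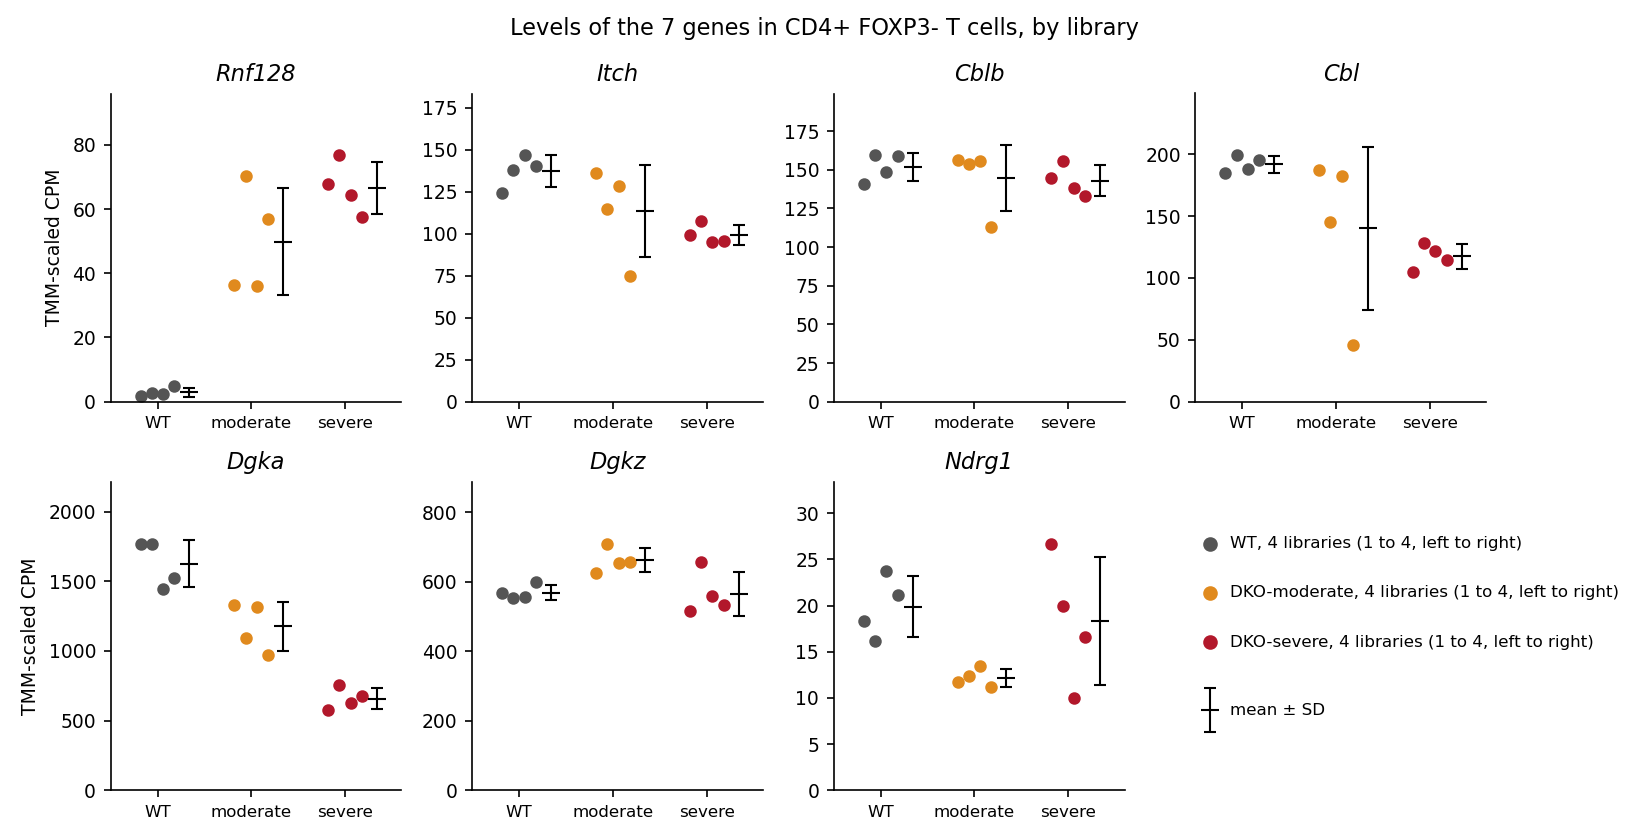
TMM-scaled CPM of the 7 genes in each library, with 4 points a group in the order of library number and the group mean ± SD as a bar. The axis of each panel starts at 0. *Rnf128* lay between 1.90 and 5.002 CPM in WT and between 36.0 and 76.8 CPM in the DKO libraries, and *Dgka* was separate in all 3 groups.

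*Rnf128* (mouse chromosome X, 139563316 to 139673145, plus strand, GRCm38) encodes GRAIL, a transmembrane RING ligase with a protease-associated domain, which was found as a gene induced in anergic CD4+ T cells. Its promoter is shown because the gene had the largest change of the 7 and because factors of the anergy program are known to act on it. Beside it stands a promoter of *Dgka*, the gene that fell. The *Rnf128* window lies at 1 of its 2 annotated coding starts, inside the gene span given above, and no window was in the table for the other start. Both sequences are the 250 bases before a RefSeq transcript start (GRCm38.p6), in transcript direction, in lower case with matches to the motifs listed next in capitals.
*Rnf128*, chrX:139610370-139610619, plus strand: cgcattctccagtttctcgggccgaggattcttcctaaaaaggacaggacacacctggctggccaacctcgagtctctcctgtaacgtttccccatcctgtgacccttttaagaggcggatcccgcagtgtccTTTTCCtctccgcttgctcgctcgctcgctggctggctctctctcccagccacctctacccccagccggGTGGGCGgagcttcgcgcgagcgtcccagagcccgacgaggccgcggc
*Dgka*, chr10:128744077-128744326, minus strand: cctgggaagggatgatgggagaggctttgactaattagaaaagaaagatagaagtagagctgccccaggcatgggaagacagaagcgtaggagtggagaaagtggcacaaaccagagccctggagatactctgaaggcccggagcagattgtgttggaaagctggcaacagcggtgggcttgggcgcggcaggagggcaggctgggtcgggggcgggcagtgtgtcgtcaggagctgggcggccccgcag

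Windows from 250 bases before to 50 after a start were searched on both strands for the NFAT core GGAAAA, AP-1 TGANTCA, the EGR core GCGTGGGCG with its shorter form GTGGGCG, which lies inside the longer one, and the FOXO core TGTTTAC. The *Rnf128* window held an NFAT core on the minus strand, read TTTTCC on the plus strand and starting 117 bases before the start, and a short EGR core 48 bases before it. Of all 32851 RefSeq windows of this length, 23.4% held the NFAT core and 7.97% the short EGR core. The EGR core was found in 0.612%, AP-1 in 7.81% and the FOXO core in 3.65% of all windows and in none of the 9 windows of the members. Of the 4 windows of *Dgka*, 1 held an NFAT core, while the one printed held no match. A short EGR core was also found in the window of *Cbl* and in 1 of the 2 windows of *Dgkz*, and no match in that of *Cblb*. The *Rnf128* window held 26 CG dinucleotides and the printed window of *Dgka* 17, where the median over all windows was 7. *Itch* and *Ndrg1* had no window in the table used. These matches are descriptions of letters.

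*Rnf128* was counted at 1.90, 2.65, 2.24 and 5.002 CPM in WT libraries 1 to 4, which rests on 66 to 183 reads a library. It was at 36.3, 70.4, 36.0 and 56.9 CPM in DKO-moderate libraries and at 67.9, 76.8, 64.4 and 57.4 CPM in DKO-severe libraries. Every DKO library lay above every WT library, and the DKO groups overlapped each other. The level was 22.5-fold higher in DKO-severe than in WT (95% interval 13.8 to 36.8, log2 fold change 4.49, SE 0.33, edgeR adjusted p = 4.31e-06). It was 16.9-fold higher in DKO-moderate than in WT (interval 10.4 to 27.4, log2 fold change 4.08, SE 0.32, adjusted p = 6.94e-05). Between DKO-severe and DKO-moderate the log2 fold change was 0.42 (SE 0.28, adjusted p = 0.289), with an interval from 0.88-fold to 2.03-fold. *Rnf128* passed the test against WT in each of 12 fits with a library left out, between 4.33 and 4.88 on the log2 scale in DKO-severe and between 3.86 and 4.46 in DKO-moderate. In the DKO-moderate libraries the neutrophil genes summed to at most 8.42 CPM and the plasma cell genes to 104, 172, 121 and 206 CPM. Libraries 2 and 4, with the 2 highest values of *Rnf128*, had the highest plasma cell sums of this group. They also had its highest activation gene sums (1722 and 1510 CPM) and its lowest naive gene sums (2508 and 2463 CPM). Of the 5 plasma cell genes, 1 passed the test in DKO-moderate against WT, *Irf4*. Without DKO-severe libraries 1 and 2, which had the highest neutrophil sums, the log2 fold change against WT was 4.41 (adjusted p = 2.74e-05), and with terms for neutrophil and B cell genes in the fit it was 3.73 (adjusted p = 0.00254). Those terms took the calls over all tested genes in DKO-severe against WT from 8428 to 1963. The parts of the plasma cell, naive and activated gene sums, which also differed between the groups, were not tested.

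Of 12 listed genes that regulate GRAIL, belong to its family, or are other RING ligases of T cell tolerance, 0 rose and 6 fell in DKO-severe against WT. This is 50% called, near the 52.6% of all tested genes, and their median log2 fold change was −0.33, against −0.01 over all genes. *Rnf167*, a family member of lysosomal membranes, averaged 308 ± 33.4 CPM in WT against 213 ± 18.4 in DKO-moderate and 113 ± 17.3 in DKO-severe (SD, n = 4). It fell by 1.45 on the log2 scale in DKO-severe (SE 0.12, adjusted p = 6.47e-06) and by 0.53 in DKO-moderate (adjusted p = 0.0102). *Rnf130* fell by 1.32 (adjusted p = 0.00104), *Peli1*, a ligase that restrains T cell activation, by 0.90 (adjusted p = 0.000136), and *Traf6*, which acts in NF-κB signaling, by 0.56 (adjusted p = 0.00503) in DKO-severe against WT. With terms for neutrophil and B cell genes, *Peli1* and *Traf6* were not past the threshold. In DKO-moderate against WT, 1 listed gene rose and 2 fell (25% called, against 17.1% of all tested genes). Of the 2 that fell, *Rnf130* lost the call in 13 of 22 alternative fits. The gene that rose was *Dtx1*, a RING ligase of the Notch pathway that is reported to promote anergy, at 434 against 247 CPM in WT (log2 fold change 0.81, adjusted p = 0.0231), which is named here after its values were seen. In DKO-severe *Dtx1* was at 226 CPM (−0.13, adjusted p = 0.631).

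Levels of different genes were compared per kilobase of exon, merged over the annotated transcripts of each gene. This length can differ from that of the transcripts present. On this scale *Rnf128* took 0.652% of the transcripts of GRAIL and 4 family members (*Rnf13*, *Rnf130*, *Rnf149* and *Rnf167*) in WT. Its share in WT ranged from 0.388% to 1.13%. It took 9.38% to 17.3% in DKO-moderate and 21.8% to 26.6% in DKO-severe, and these ranges did not overlap. The share of *Rnf167* was 65.9%, 52.7% and 39.1% on average. The total of the 5 genes was 132 ± 8.04 CPM per kilobase in WT against 115 ± 4.59 in DKO-moderate and 81.6 ± 13.4 in DKO-severe (SD, n = 4). In the same order of groups, *Rnf167* went from 87.1 to 60.3 and 31.8 and *Rnf130* from 19.9 to 11.2 and 7.95 CPM per kilobase. *Rnf149* was at 19.2, 24.4 and 18.7 and *Rnf13* at 4.84, 4.49 and 3.92. The rise of *Rnf128* thus did not offset the fall in the total, which was mostly that of *Rnf167*.

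*Itch* (chromosome 2, 155133509 to 155226855, plus strand) encodes a HECT ligase of the NEDD4 family. Loss of ITCH in mice is known to cause T helper 2-biased inflammation, with JunB, c-Jun and PKC-θ among its substrates. WT libraries 1 to 4 held *Itch* at 124, 138, 147 and 140 CPM. The values were 136, 115, 128 and 74.9 CPM for DKO-moderate and 99.4, 108, 94.8 and 95.7 CPM for DKO-severe. Every DKO-severe library lay below every WT library, and DKO-moderate overlapped with both. *Itch* fell by 0.47 on the log2 scale in DKO-severe against WT (SE 0.15, edgeR adjusted p = 0.0195), to 72.3% of the WT mean. The adjusted p was 0.0655 without DKO-severe library 3 and 0.0632 without library 4. It was 0.0698 without libraries 1 and 2 (log2 fold change −0.49), 0.555 with terms for neutrophil and B cell genes (−0.29), and 0.106 with scaling by library size alone (−0.28). In DKO-moderate against WT the log2 fold change was −0.27 (adjusted p = 0.224, interval 0.66-fold to 1.03-fold).

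Other members of the NEDD4 family and their adaptors moved in both directions. Of 10 listed genes 9 were tested, of which 3 rose and 3 fell in DKO-severe against WT, where 52.6% of all tested genes were called. *Nedd4l*, best known for ubiquitylating ion channels, averaged 33.5 ± 0.90 CPM in WT against 14.0 ± 6.18 in DKO-moderate and 4.50 ± 2.31 in DKO-severe (SD, n = 4). It fell by 2.90 on the log2 scale in DKO-severe (adjusted p = 7.34e-05) and by 1.26 in DKO-moderate (adjusted p = 0.0296), a call that was lost in 8 of 22 alternative fits. *Smurf1* fell by 0.99 (adjusted p = 2.5e-05) and *Smurf2* by 0.99 (adjusted p = 0.00123) in DKO-severe. With terms for neutrophil and B cell genes, *Nedd4l* (−1.85, adjusted p = 0.0869) and *Smurf2* were not past the threshold in DKO-severe. *Ndfip1*, an adaptor that recruits and activates ITCH and restrains T cell activation, rose from 226 ± 14.0 CPM in WT to 336 ± 43.8 in DKO-moderate (log2 fold change 0.57, adjusted p = 0.00373) and 479 ± 49.6 in DKO-severe (1.08, adjusted p = 1.37e-05). Its adaptor transcript and *Itch* itself thus changed in opposite directions in DKO-severe. *Hecw2* rose from 0.0957 to 3.89 CPM on average (5.30, adjusted p = 0.000798), but varied from 0.518 to 9.05 CPM among DKO-severe libraries. The share of *Itch* in the 9 NEDD4-family ligases, per kilobase of exon, was 18.9%, 18.1% and 19.4% in WT, DKO-moderate and DKO-severe, while the total fell from 74.9 to 64.3 and 52.8 CPM per kilobase. The family's transcripts and *Itch* therefore fell by about the same proportion.

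*Cblb* (chromosome 16, 52031225 to 52208048, plus strand) and *Cbl* (chromosome 9, 44142976 to 44234049, minus strand) encode CBL-B and c-CBL, closely related RING ligases with a tyrosine kinase-binding domain. CBL-B sets the need of T cells for CD28 costimulation, and c-CBL acts on receptor components, mostly in thymocytes. *Cblb* in WT libraries 1 to 4 measured 141, 160, 149 and 159 CPM. The values were 157, 154, 156 and 113 CPM for DKO-moderate and 145, 156, 139 and 133 CPM for DKO-severe. The 3 groups overlapped, with DKO-moderate library 4 the lowest of the 12. The log2 fold change was −0.09 in DKO-severe against WT (adjusted p = 0.498, interval 0.80-fold to 1.10-fold) and −0.07 in DKO-moderate against WT (adjusted p = 0.676, interval 0.81-fold to 1.11-fold), and with scaling by library size alone the signs turned (0.10 in DKO-severe, 0.01 in DKO-moderate). That scaling moved the median of all genes in DKO-severe against WT to 0.18.

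WT libraries 1 to 4 held *Cbl* at 185, 199, 188 and 196 CPM. The values were 187, 145, 182 and 45.7 CPM for DKO-moderate and 105, 128, 122 and 115 CPM for DKO-severe. All DKO-severe libraries lay below all WT libraries, at 61.2% of the WT mean, and DKO-moderate library 4 lay below all others. With all 12 libraries in the fit, the difference between DKO-severe and WT was not past the threshold (log2 fold change −0.71, SE 0.31, edgeR adjusted p = 0.0719, interval 0.38-fold to 0.98-fold). The spread of the fit took in DKO-moderate library 4. Without it the difference was −0.68 with an adjusted p of 8.95e-05, and in a fit of WT and DKO-severe alone it was −0.66 with an adjusted p of 0.00011. It was −0.17 (adjusted p = 0.890) with terms for neutrophil and B cell genes. In DKO-moderate against WT the log2 fold change was −0.45 (adjusted p = 0.333), and it was −0.17 without library 4. *Cbl* has 12.3 kb, *Cblb* 10.5 kb and *Itch* 9.71 kb of exon, the longest of the 7 genes, and all were lowest of the 12 libraries in this one, in which long genes as a class were low.

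Because both genes of a ratio come from the same library, scaling does not enter it. The ratio of *Cblb* reads to *Cbl* reads was 0.763, 0.801, 0.792 and 0.813 in WT against 0.838, 1.06, 0.853 and 2.47 in DKO-moderate and 1.38, 1.22, 1.14 and 1.16 in DKO-severe libraries. All DKO libraries lay above all WT libraries. The ratio was 1.54-fold higher in DKO-severe than in WT (two-sided exact permutation test, p = 0.0286, the smallest that 4 libraries against 4 can give, adjusted p = 0.0343 over 6 ratio tests) and 1.48-fold higher in DKO-moderate (exact p = 0.0286, adjusted p = 0.0343). The mean difference for DKO-moderate was 0.56 on the log2 scale and 0.20 without library 4. The DKO groups overlapped (log2 difference 0.06, exact p = 0.914). Per kilobase of exon the ratio was 0.934 ± 0.025 in WT and 1.44 ± 0.13 in DKO-severe (SD, n = 4), below and above an equal level of both genes. The third family gene, *Cblc*, took at most 0.162% of the family's transcripts in any library.

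Of 11 listed adaptors and partners of CBL proteins 10 were tested, and in DKO-severe against WT 1 rose and 5 fell (60% called, against 52.6% of all genes, median log2 fold change −0.28). *Sla*, which encodes SLAP, the adaptor through which c-CBL lowers T cell receptor levels, rose from 211 ± 24.5 CPM in WT to 459 ± 66.7 in DKO-moderate (1.12, adjusted p = 0.000343) and 665 ± 94.6 in DKO-severe (1.66, adjusted p = 6.46e-06; SD, n = 4). *Ubash3a*, a phosphatase-family suppressor of receptor signaling that binds CBL, fell by 1.44 on the log2 scale in DKO-severe against WT (adjusted p = 0.000488) and was at −0.15 in DKO-moderate (adjusted p = 0.71). *Cd2ap*, which links CBL to endocytosis, fell by 0.95 in DKO-severe (adjusted p = 0.000145) and by 0.68 in DKO-moderate (adjusted p = 0.00554). *Ubash3b* fell by 0.47 (adjusted p = 0.00259) and *Sh3kbp1* by 0.43 (adjusted p = 0.0161) in DKO-severe. In the fit with neutrophil and B cell terms *Sla* kept the call and these 4 genes that fell did not.

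**Figure D2:**
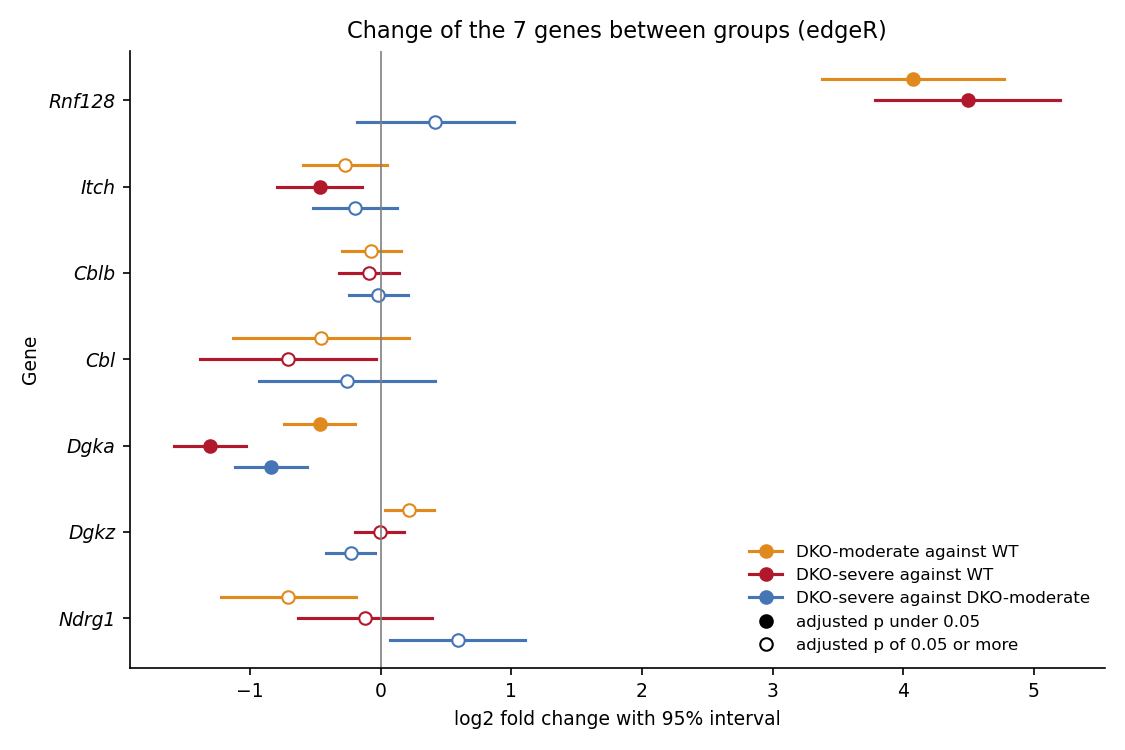
Log2 fold changes of the 7 genes in the 3 comparisons, as points with 95% intervals from the edgeR fit. Filled points passed an adjusted p of 0.05, which were *Rnf128* and *Dgka* against WT in both DKO groups, *Itch* in DKO-severe against WT, and *Dgka* between the DKO groups.

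*Dgka* (chromosome 10, 128720134 to 128744855, minus strand) encodes DGK-α, the kinase that moves to the membrane upon receptor engagement and whose gene is known to be high in quiescent and anergic T cells and to fall upon activation. WT libraries 1 to 4 held *Dgka* at 1771, 1767, 1442 and 1521 CPM. The values were 1331, 1091, 1313 and 973 CPM for DKO-moderate and 577, 755, 627 and 674 CPM for DKO-severe. No library of a group overlapped with another group, and the order was WT, DKO-moderate, DKO-severe. The naive gene sums fell in the same order of groups without overlap. In DKO-moderate libraries 1 to 4 those sums were 3682, 2508, 3925 and 2463 CPM, lowest in libraries 2 and 4 like *Dgka*. The part of the naive gene sums in the level of *Dgka* and in its ratio to *Dgkz* was not tested. The DKO-severe mean of *Dgka* was 40.5% of its WT mean (log2 fold change −1.30, SE 0.13, interval 0.335-fold to 0.490-fold, edgeR adjusted p = 1.28e-05). The DKO-moderate mean was 72.4% of it (−0.47, SE 0.12, interval 0.60-fold to 0.87-fold, adjusted p = 0.0237). DKO-severe was below DKO-moderate by 0.84 (SE 0.13, adjusted p = 0.00344). The difference between DKO-moderate and WT lost the call in 3 of 12 fits with a library left out, which were those without WT library 1 (adjusted p = 0.0733), WT library 2 (0.0729) or DKO-moderate library 2 (0.0627). With terms for neutrophil and B cell genes the adjusted p was 0.0258 for DKO-severe against WT (−1.06), 0.0792 for DKO-moderate against WT (−0.42) and 0.200 between the DKO groups (−0.64).

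*Dgkz* (chromosome 2, 91932824 to 91975864, minus strand) encodes DGK-ζ, the kinase held to account for most restraint of Ras signaling downstream of the receptor. *Dgkz* in the WT libraries measured 567, 552, 557 and 600 CPM. The values were 627, 710, 655 and 658 CPM for DKO-moderate and 515, 657, 559 and 533 CPM for DKO-severe. DKO-moderate lay above WT in every library, and DKO-severe overlapped with both. The log2 fold change was −0.01 in DKO-severe against WT (edgeR adjusted p = 0.947), with an interval of 0.87-fold to 1.13-fold, and it kept this sign in only 6 of 11 alternative fits (0.18 with scaling by library size alone). In DKO-moderate against WT it was 0.22 (SE 0.09, adjusted p = 0.0991), and between the DKO groups −0.23 (adjusted p = 0.08). DESeq2 placed the difference between DKO-moderate and WT past the threshold (adjusted p = 0.0418).

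Within a library, *Dgka* reads were 3.12, 3.20, 2.59 and 2.54 times *Dgkz* reads in WT against 2.12, 1.54, 2.01 and 1.48 times in DKO-moderate and 1.12, 1.15, 1.12 and 1.26 times in DKO-severe. The groups did not overlap in any pair. The log2 ratio was lower by 1.29 in DKO-severe than in WT and by 0.69 in DKO-moderate than in WT, and lower by 0.60 in DKO-severe than in DKO-moderate (two-sided exact permutation test, p = 0.0286 each, the smallest possible, adjusted p = 0.0343). Leaving out any library moved these differences only to between 1.24 and 1.35, 0.61 and 0.78, and 0.51 and 0.69 below, in that order.

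**Figure D3:**
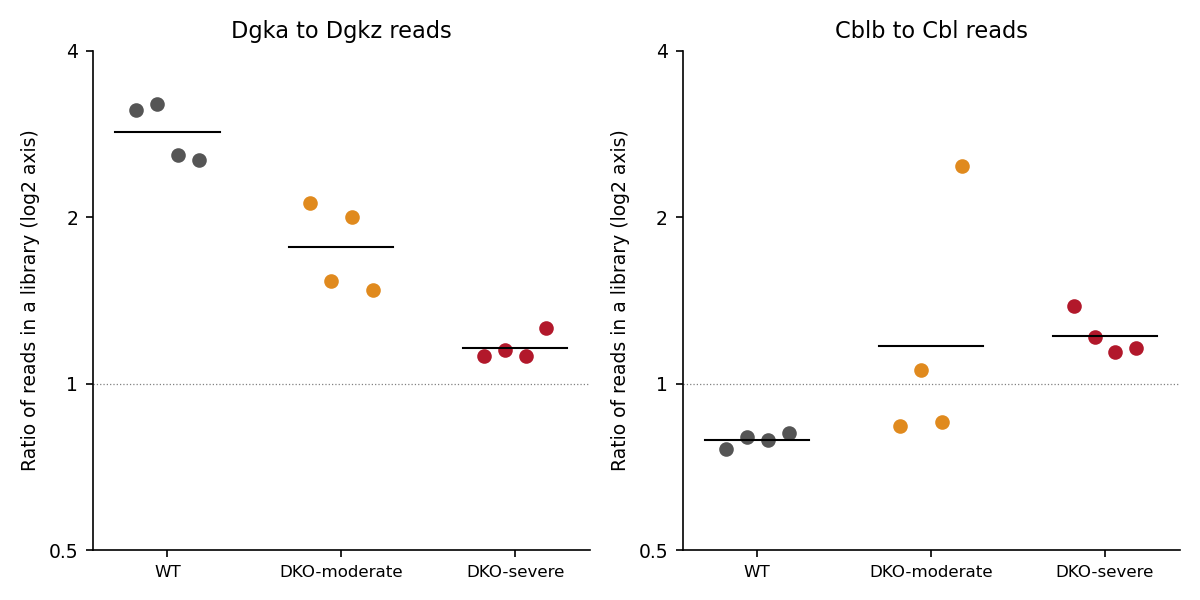
Ratio of *Dgka* to *Dgkz* reads (left) and of *Cblb* to *Cbl* reads (right) in each library on a log2 axis, with the geometric mean of each group as a line. The first ratio stepped down from 2.54 to 3.20 in WT to 1.12 to 1.26 in DKO-severe, and the second rose above WT in all DKO libraries, with DKO-moderate library 4 at 2.47.

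Of 8 other diacylglycerol kinase genes 6 were tested, and in DKO-severe against WT, where 52.6% of all genes were called, 2 rose and 4 fell (median log2 fold change −0.68). *Dgkd* was the next most abundant, and fell from 461 ± 30.9 CPM in WT to 263 ± 77.4 in DKO-moderate (−0.81, adjusted p = 0.0119) and 155 ± 24.5 in DKO-severe (−1.57, adjusted p = 4.52e-05; SD, n = 4). *Dgkh* fell by 1.45 (adjusted p = 0.00273) and *Dgkq* by 0.80 (adjusted p = 0.000392) in DKO-severe. *Dgkd*, *Dgkh* and *Dgkq* lost the call in the fit with neutrophil and B cell terms. The kinases that rose had been near 0 in WT. *Dgki* did not exceed 0.574 CPM in WT, while DKO-moderate libraries held 2.79, 16.4, 7.75 and 6.41 CPM and DKO-severe libraries 11.3, 12.1, 15.6 and 16.3 CPM (log2 fold change 5.16, adjusted p = 0.00108, and 5.89, adjusted p = 8.28e-05). *Dgkg* was at 0.129 to 0.834 CPM in WT and at 23.3, 2.04, 23.9 and 14.6 CPM in DKO-severe libraries (5.22, adjusted p = 0.000409), and in DKO-moderate it was at 0.424 to 2.36 CPM (1.66, adjusted p = 0.173).

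Per kilobase of exon, the 10 diacylglycerol kinase genes summed to 512 ± 39.2 CPM in WT against 402 ± 46.0 in DKO-moderate and 263 ± 27.3 in DKO-severe (SD, n = 4). *Dgka* made up 66.6%, 61.3% and 52.6% of this total and *Dgkz* 17.8%, 26.6% and 34.4%. *Dgkd* made up 13.2%, 9.40% and 8.62%, and *Dgki* and *Dgkg* reached at most 1.01% and 1.07% in any library. The fall of the total was thus mostly that of *Dgka*, which went from 341 to 138 CPM per kilobase between WT and DKO-severe, while *Dgkz* was at 90.7 and 90.3 CPM per kilobase.

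**Figure D4:**
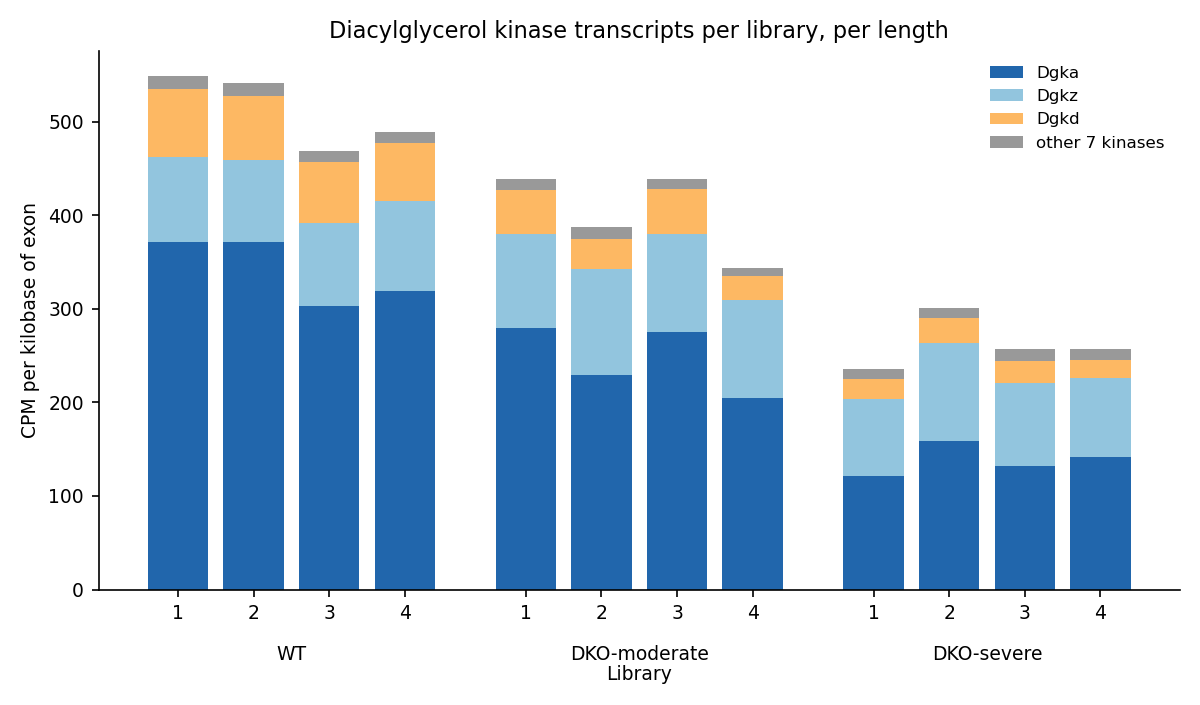
Stacked CPM per kilobase of exon of the diacylglycerol kinase genes in each library, in 3 groups of 4. The stacks summed to 468 to 548 in WT against 343 to 439 in DKO-moderate and 236 to 301 in DKO-severe libraries, and the *Dgkz* segment had a mean of 90.7, 106 and 90.3 while that of *Dgka* went from 341 to 247 and 138.

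Of 13 listed effectors, whose products diacylglycerol activates, 12 were tested, and in DKO-severe against WT 2 rose and 6 fell (66.7% called, against 52.6% of all genes, median log2 fold change −0.36). *Rasgrp1*, the Ras activator downstream of the receptor, fell from 627 ± 43.3 CPM in WT to 372 ± 97.2 in DKO-moderate (−0.75, adjusted p = 0.0329, lost in 7 of 22 alternative fits) and 185 ± 53.0 in DKO-severe (−1.76, adjusted p = 5.81e-05; SD, n = 4). *Rasgrp2*, which acts on Rap1, fell by 1.87 (adjusted p = 8.95e-05), *Prkd3* by 2.07 (adjusted p = 0.000245) and *Prkd2* by 0.90 (adjusted p = 0.000637) in DKO-severe. None of these 4 genes was past the threshold in DKO-severe once neutrophil and B cell terms entered the fit. *Prkca*, a conventional protein kinase C, rose from 109 ± 18.3 CPM to 192 ± 26.5 in DKO-moderate (0.81, adjusted p = 0.00119) and 231 ± 10.6 in DKO-severe (1.08, adjusted p = 3.16e-05).

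Among 13 listed substrates of the ligases, of which *Prkcq* was also among the effectors, 3 rose and 7 fell in DKO-severe against WT (76.9% called, against 52.6% of all genes, median log2 fold change −0.48). *Jun*, whose product is a substrate of ITCH, fell from 411 ± 63.0 CPM in WT to 47.2 ± 26.1 in DKO-severe (−3.12, adjusted p = 9.69e-05; SD, n = 4) and was at 185 ± 71.8 CPM in DKO-moderate (−1.15, adjusted p = 0.0642). *Junb* fell by 1.92 in DKO-severe (adjusted p = 0.000176) and by 0.88 in DKO-moderate (adjusted p = 0.0485), where the call was lost in 14 of 22 alternative fits. *Cd247*, the CD3ζ chain, fell by 1.20 (adjusted p = 5.44e-05) and *Pik3r1*, a regulatory subunit of PI3K targeted by CBL-B, by 1.52 (adjusted p = 0.000905) in DKO-severe. *Jun* was at −1.60 (adjusted p = 0.136) in the fit with neutrophil and B cell terms, in which these 4 genes all lost the call. *Cd83*, whose product is a surface protein reported as a substrate of GRAIL, was at 2.701 to 14.3 CPM in WT and 32.1 to 110 CPM in DKO-severe libraries (2.76, adjusted p = 0.000876).

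Among 12 listed transcription factors of the anergy program, 5 rose and 1 fell in DKO-severe against WT (50% called, against 52.6% of all genes, median log2 fold change 0.35). *Egr2* rose from 20.3 ± 5.37 CPM in WT to 60.8 ± 18.3 in DKO-moderate (1.58, adjusted p = 0.00139) and 91.7 ± 21.9 in DKO-severe (2.18, adjusted p = 3.43e-05; SD, n = 4). *Nfatc1* rose by 0.89 (adjusted p = 0.00134) and 0.96 (adjusted p = 0.000139) in these groups, and *Nr4a2* by 2.16 in DKO-severe (adjusted p = 0.000466). *Egr3* was at 13.3 to 20.8 CPM in WT and 16.9 to 36.2 in DKO-severe libraries, with an adjusted p of 0.0385 that did not hold in 9 of 23 alternatives. *Ikzf1* fell by 0.59 in DKO-severe (adjusted p = 0.0021). With terms for neutrophil and B cell genes, 26 of the 37 pathway genes named by rule were no longer past the threshold in DKO-severe against WT. Over all tested genes those terms took the calls from 8428 to 1963. Every DKO-severe library had a higher neutrophil sum than every WT library, so these terms overlap with the difference between the groups. The 26 genes included *Nfatc1*, *Nr4a2*, *Egr3*, *Ikzf1* and the 3 other NDRG genes but not *Egr2*. None of the 37 changed direction in 851 alternative fits of this comparison. They had been chosen for passing the threshold in this same comparison, mostly by size of change. That choice makes a change of direction unlikely, so the count is no check of the result.

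**Figure D5:**
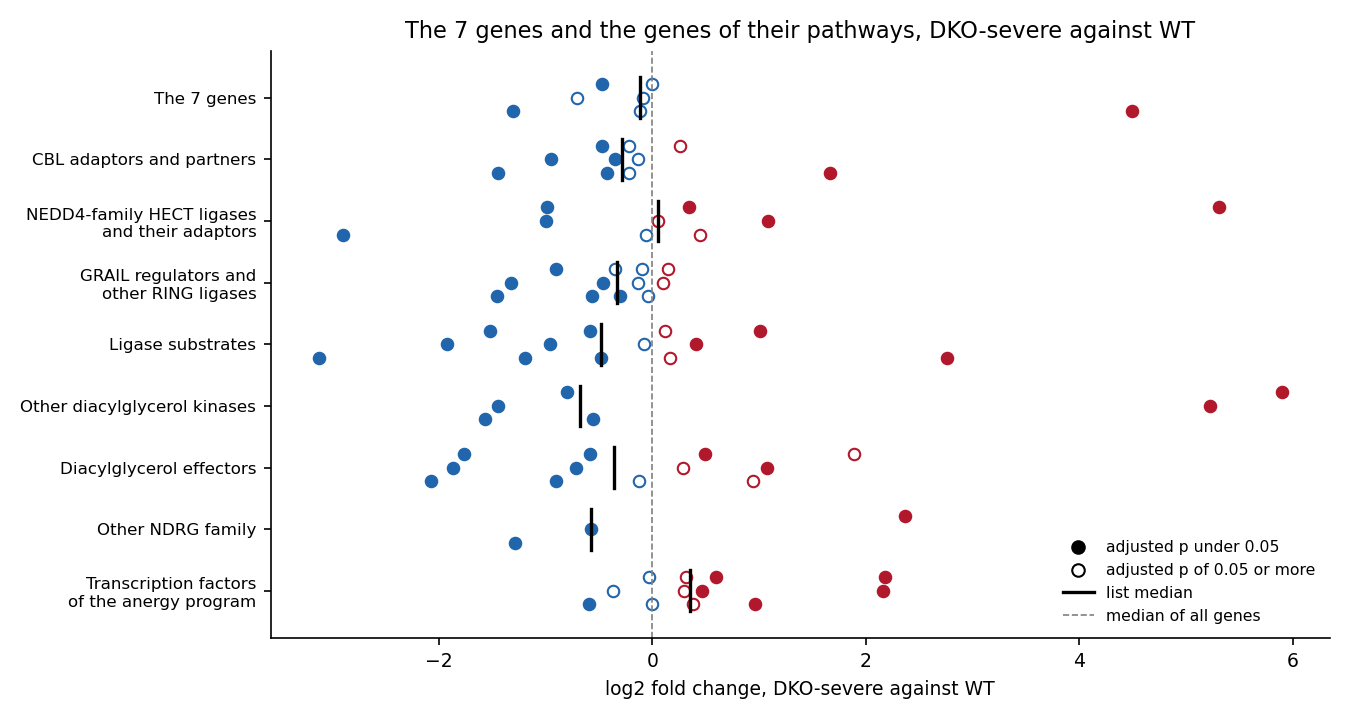
Log2 fold change between DKO-severe and WT of the 7 genes and of the genes of 8 related lists, with 1 point a gene, filled where the adjusted p was under 0.05. Black bars mark list medians, which ran from −0.68 for the other diacylglycerol kinases to 0.35 for the transcription factors, and the dashed line marks the median of all genes at −0.01.

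*Ndrg1* (chromosome 15, 66929318 to 66969640, minus strand) encodes a cytoplasmic protein induced by hypoxia and by EGR2, which was described as a factor that maintains T cell clonal anergy. *Ndrg1* in the WT libraries measured 18.3, 16.2, 23.8 and 21.2 CPM. The values were 11.7, 12.4, 13.4 and 11.2 CPM for DKO-moderate and 26.7, 19.97, 10.02 and 16.6 CPM for DKO-severe. All DKO-moderate libraries lay below all WT libraries, and DKO-severe libraries spread over both. The log2 fold change was −0.71 in DKO-moderate against WT (SE 0.24, edgeR adjusted p = 0.0605), which passed the threshold with DESeq2 (adjusted p = 0.0261) and in a fit of these groups alone (adjusted p = 0.0105). It was −0.12 in DKO-severe against WT (adjusted p = 0.692, interval 0.65-fold to 1.32-fold; 0.06 with scaling by library size alone) and 0.59 between the DKO groups (adjusted p = 0.0967). The highest DKO-severe values were those of libraries 1 and 2, which also had the highest neutrophil sums. Without these 2 libraries the log2 fold change was −0.54 against WT (adjusted p = 0.0731) and 0.17 against DKO-moderate (adjusted p = 0.656). Of the other family genes, *Ndrg3* fell by 1.29 (adjusted p = 6.77e-05) and *Ndrg2* by 0.57 (adjusted p = 0.00529), and *Ndrg4* rose from 0.887 to 4.60 CPM (2.37, adjusted p = 0.000333) in DKO-severe against WT. *Ndrg2* also fell by 0.65 in DKO-moderate (adjusted p = 0.00921).

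Per kilobase of exon, the order of mean levels in WT was *Dgka* (341 CPM per kilobase), *Dgkz* (90.7), *Cbl* (15.5), *Cblb* (14.5), *Itch* (14.1), *Ndrg1* (3.01) and *Rnf128* (0.851). *Cbl*, *Cblb* and *Itch* overlapped in this order, and the other neighbours did not. In DKO-moderate *Rnf128* stood at 14.4 CPM per kilobase, next after *Dgkz* and in overlap with *Cblb* (13.8), *Itch* (11.7) and *Cbl* (11.3). In DKO-severe *Rnf128* stood at 19.2 (range 16.6 to 22.2), above *Cblb* at 13.7 (range 12.7 to 14.9), and *Itch* (10.2) and *Cbl* (9.50) overlapped below them. By this measure *Rnf128* moved from the lowest of the 7 genes in WT to the most abundant of the 4 ligase genes in DKO-severe. The order depends on the exon length used. In CPM, without division by length, the DKO-severe mean of *Rnf128* was 66.6, below *Itch* (99.4), *Cbl* (117) and *Cblb* (143). *Dgka* was the highest in every group, and *Ndrg1* the lowest in both DKO groups.

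The genes with the profile most like each member were found among 9995 genes with a mean of at least 5 CPM, by the root mean square difference of log2 CPM over the 12 libraries after subtracting each gene's WT mean. For *Rnf128* they were *1700019D03Rik* (difference 0.36) and *Cc2d2a* (0.40), which stood at 1.40 and 0.374 CPM in WT and at 33.0 and 10.02 CPM in DKO-severe. For *Dgka* they were *Rgl2* (0.09) and *Spata5l1* (0.11), with *Rgl2* at 140, 97.5 and 56.8 CPM in WT, DKO-moderate and DKO-severe. For *Itch* they were *Ncoa3* (0.08) and *Rlf* (0.08), for *Cbl* *Zfp369* (0.12) and *Cpeb4* (0.15), for *Cblb* *Senp5* (0.06) and *Eif4g3* (0.07), for *Dgkz* *Nbn* (0.08) and *Gnpnat1* (0.10), and for *Ndrg1* *Sbk1* (0.33) and *5031439G07Rik* (0.34).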

How the data were processed

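The authors aligned reads to mm10 with STAR 2.7.11 (per the labels), kept uniquely mapped reads, and deposited raw read counts per gene from htseq-count in reverse-stranded mode, so antisense genes are kept apart. The annotation is not given in the sources used here. Records not on genes were 18.5% to 23.7% of a library and were left out. Genes with at least 10 reads summed over a group in at least 1 group were tested with edgeR 4.0.16 (R 4.3.3, TMM scaling, all 12 libraries in 1 fit). The study used DESeq2, run here (1.42.0) as an alternative, with limma voom (3.58.1). SE is the size of the log2 fold change divided by the square root of F. Ratios were tested with exact permutation tests in scipy 1.17.1. Scripts were tested on simulated data. Counts of reads limit the precision, and intervals cover the spread between samples.

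The members, lists and named genes were chosen with earlier results of these data known. Named genes were the 7 members, *Tet2*, *Tet3*, for each pathway list the largest rise and fall past the threshold in DKO-severe against WT and up to 3 further genes by size with at least 5 CPM, and the 2 genes most like each member. Of 141 listed genes 139 were found, 4 by an older symbol. *Trac* and *Trbc2* were not analysed here. Coordinates and exon lengths are from GENCODE (GRCm38) and promoters from RefSeq (GRCm38.p6). In a chi-square test of their counts, 2 libraries of a group differed by 21.6 per degree of freedom or more, so none was taken as a copy.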

Additional observations from a re-analysis of the deposited data

Results flagged for a closer look

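Of 27 groups of 4 libraries tested for a library far from the others, 2 had one, where chance gives about 5%. *Cblb* was at 113 CPM in DKO-moderate library 4, where the other 3 libraries of the group lay between 154 and 157 CPM. The ratio of *Cblb* to *Cbl* reads was 2.47 in the same library, where the others lay between 0.838 and 1.06. Both come from the library in which genes with at least 8 kb of exon were 0.74 log2 units below genes with under 2 kb, and the part of this difference in the 2 values was not tested.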

How the results depend on the processing

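Of 476 recomputed log2 fold changes of single members, 422 kept their direction and their side of the threshold, 10 lost the call, 17 gained one and 27 turned in direction. The counts of members called and the ratios were not part of this tally. With a term for Y-linked transcripts in the fit, as a stand-in for sex, no member changed direction or lost or gained the call. The number of members called was 3 in DKO-severe against WT, 2 to 4 with a library left out. In DKO-moderate against WT it was 2, 1 to 3 with a library left out, 4 with DESeq2, and 1 at an adjusted p under 0.01 or with a log2 fold change of at least 1. In DKO-severe against DKO-moderate it was 1, 1 to 3 with a library left out, 2 with DESeq2, 4 with limma voom, and 0 with terms for neutrophil and B cell genes or with a log2 fold change of at least 1. Over all 16035 tested genes, the calls between the DKO groups were 3217 in the main fit and 4152 with DESeq2. They were 6126 with limma voom and 65 with the neutrophil and B cell terms. Those terms took the calls over all genes in DKO-severe against WT from 8428 to 1963. DESeq2 took the calls over all genes in DKO-moderate against WT from 2734 to 3911. No shared effect of the replicate number was seen. The median correlation was −0.051 between libraries of the same number and −0.0087 between those of different numbers. These values cannot show whether samples were prepared in pairs. With the replicate block the counts of members called were 3, 2 and 1. With a library left out, the log2 *Cblb* to *Cbl* ratio differed by 0.56 to 0.66 in DKO-severe against WT, 0.20 to 0.72 in DKO-moderate against WT and −0.10 to 0.42 between the DKO groups, and the *Dgka* to *Dgkz* ratio by −1.35 to −1.24, −0.78 to −0.61 and −0.69 to −0.51.

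The values that turned in direction were not past the threshold. *Dgkz* in DKO-severe against WT was 0.0760 with DESeq2, 0.0761 with its size factors, 0.178 with library size alone, 0.0359 under the filter of 10 reads per library, 0.0445 with only the groups compared, and −0.0598 to 0.0535 with a library left out. *Ndrg1* in DKO-severe against WT was 0.0640 with library size alone and −0.356 to 0.115 with a library left out (0.115 without DKO-severe 3). *Cblb* was 0.0978 with library size alone in DKO-severe against WT. In DKO-moderate against WT it was 0.0053 with library size alone and −0.110 to 0.0257 with a library left out (0.0257 without DKO-moderate 4). Between the DKO groups it was 0.0580 with DESeq2 or its size factors, 0.0925 with library size alone, 0.0326 under the filter of 10 reads per library, and −0.0818 to 0.0579 with a library left out. With the neutrophil and B cell terms *Cbl* was 0.158, *Rnf128* −0.0801 and *Ndrg1* −0.0744 between the DKO groups. The causes were not tested. The fits without DKO-severe 1 and 2 were chosen after seeing the data.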
